A study of Macaca mulatta with 13 samples.

Results

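The endoplasmic reticulum is the compartment in which a cell folds, trims and glycosylates the proteins it will secrete, and 44 genes of its import, folding and sorting machinery were measured here in plasma, B and T cells of the rhesus macaque colon. The genes were taken from a list of 45 names and matched by symbol to a table of 34628 genes. The remaining name, CRELD2, has no symbol in that table and was paired through a table of gene names, so its values stand apart from the 44. A plasma cell is an antibody-secreting cell derived from a B cell, and it is known for a large endoplasmic reticulum. Proteins bound for secretion are recognised by the signal recognition particle, threaded through the SEC61 channel, freed of their signal sequence by signal peptidase and given sugar chains by the oligosaccharyltransferase. Chaperones and disulfide isomerases then fold them, and misfolded chains are sent back to the cytosol for destruction. When folding lags, the sensor IRE1, encoded by ERN1, splices the mRNA of XBP1, a transcription factor that raises many of these genes and is required for plasma cells to secrete.

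The series profiled single leukocytes from the colon of macaques with acute graft-versus-host disease (GVHD) after transplantation and of untransplanted healthy controls. Its 13 libraries are labelled as 4 host fractions, 2 donor fractions, 3 mixtures of host and donor cells from animals with GVHD, and 4 healthy controls. Cells were viable, positive for the leukocyte protein CD45 and negative for an intravascular CD45 label, so that cells of the circulation were meant to be left out. The cell barcodes carry numbers, 1 to 13, as suffixes, and no source used here ties a suffix to a label. The comparison of GVHD with healthy plasma cells was therefore not computed, and the barcode numbers serve below as names of unassigned libraries. No p-value is given, and a difference is called only by whether it had the same direction in every library that held at least 20 cells of both classes.

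Libraries 4 and 6 shared 5323 barcodes, library 4 was left out, and 20567 cells of 12 libraries remained. Any other pair of libraries shared at most 55 barcodes. Pairs of 1 library from numbers 1 to 7 and 1 from numbers 8 to 13 shared at most 3, and these blocks are called the first and the second barcode set. The protocols name 2 versions of the droplet kit without tying them to libraries.

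A cell was called a plasma cell when JCHAIN, which encodes the joining chain of secreted IgA and IgM, made up at least 1% of its unique molecular identifiers (UMIs, each marking 1 captured RNA molecule). A B cell had at least 2 UMIs of MS4A1 and CD79A together, and a T cell at least 3 of CD3D, CD3E and CD3G. Only cells that passed exactly 1 of the 3 gates were used, which gave 1241 plasma, 3780 B and 11234 T cells. The classes were drawn unevenly from the libraries. Libraries 10 and 13 held 393 and 288 of the plasma cells but 2 and 5 B cells. Libraries 3 and 9 held 1450 and 945 of the B cells but 18 and 4 plasma cells. Values pooled over libraries therefore differ in library as well as in class. In all, 2959 cells passed the plasma gate, of which 1254 also passed the B gate and 1039 the T gate. Plasma cells carried a median of 9506 UMIs, B cells 3337 and T cells 3102. The summed UMIs were 13422726 in plasma cells, 16117629 in B cells and 40143012 in T cells.

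The plasma class carried further plasma cell markers that the gate did not use. TNFRSF17, the survival receptor BCMA, stood at 196 CPM (UMIs of the gene over all UMIs of the class, scaled to counts-per-million) in plasma cells, 20.6 in B cells and 0.349 in T cells. DERL3, a protein of the degradation channel of the reticulum, stood at 1518, 149 and 9.37 CPM. PRDM1, the factor that ends the B cell programme, stood at 57.8, 4.53 and 28.4 CPM. SDC1, a surface marker of plasma cells, was at 3.43 CPM in plasma cells. CD38 at 23.4 CPM was below its 37.7 CPM in B cells and its 90.1 CPM in T cells. In plasma, B and T cells IRF4 stood at 96.3, 55.5 and 61.4 CPM, and POU2AF1 at 16.8, 13.9 and 0.399 CPM. MS4A1 was at 0.224 CPM and CD3E at 1.19 CPM, but these are genes of the B and T gates. Cells passing those gates were left out of the plasma class, so the low levels are no finding. The B cell factor PAX5 was at 0 in plasma cells and at 29.0 CPM in B cells. CD5, C1QA, KLRF1 and TFF3 were also at 0 in plasma cells, but none of them passed 1.94 CPM in B or T cells. Other genes of those lists were present in plasma cells: the myeloid genes S100A8, S100A9 and LYZ at 99.7, 69.3 and 23.8 CPM, CD3D at 23.5 CPM and the epithelial gene KRT18 at 29.0 CPM. Of the B cell genes outside the gates, CD79B stood at 56.5 CPM in plasma cells, BANK1 at 24.2 and FCER2 at 11.9. In B cells these 3 stood at 1414, 138 and 79.8 CPM. The summed markers of other cell types in plasma cells ranged over libraries from 126 to 176 CPM for the 9 B cell genes, from 20.5 to 70.7 for the 8 T cell genes, from 1.50 to 899 for the 7 myeloid genes and from 11.7 to 46.8 for the 5 epithelial genes found. The B and T cell sums include the gate genes MS4A1, CD79A, CD3D, CD3E and CD3G, whose levels in plasma cells the gates limited. The part of the markers of other cell types in the results was not tested.

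The 44 genes together made up 25040.1 CPM of the RNA of plasma cells, against 7350.0 CPM in B cells and 7868 CPM in T cells. By library the plasma sum was 38383 CPM in library 2, 25397 in library 5, 19577 in library 8, 27221 in library 10, 19874 in library 11, 26047 in library 12 and 25803 in library 13. The B cell sum ranged from 6779 to 10490.2 CPM over 6 libraries, and the T cell sum from 6627 to 10492 CPM over 11 libraries. The plasma range thus lay wholly above the ranges of both other classes.

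The scale of these values depends on a few abundant genes. In plasma cells 28 genes (24 immunoglobulin genes, JCHAIN and 3 genes without a symbol that each took over 1% of plasma cell UMIs) held 54.8% to 66.9% of all UMIs, depending on the library. The share was 1.62% in B cells and 0.194% in T cells. The 3 genes without a symbol took 24.0%, 7.14% and 1.43% of plasma cell UMIs, and the files do not say what they encode. The 28 are called antibody genes below for short. Each of their UMIs lowers the CPM of every other gene, so levels were also computed as CPM over the UMIs outside these 28 genes. On that scale the 44 genes summed to 64891 in plasma cells, 7471 in B cells and 7883 in T cells.

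**Figure D1:**
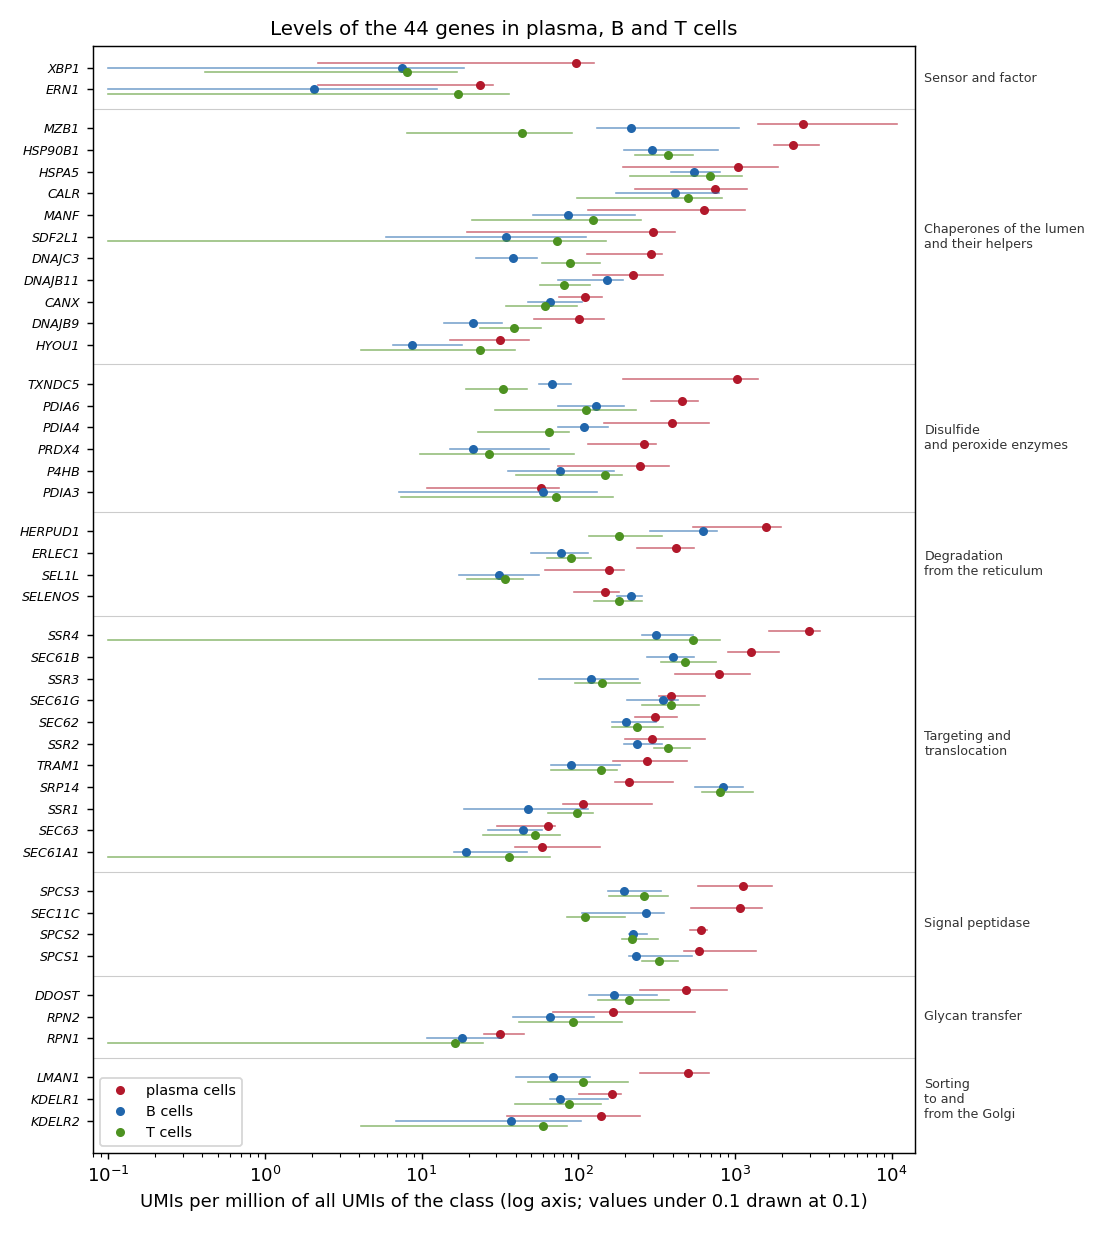
Level of each of the 44 genes (CPM over all UMIs of the class, log axis) in plasma, B and T cells, grouped by role. Points are the value pooled over cells and lines run from the lowest to the highest library with at least 20 cells of the class; MZB1, SSR4 and HSP90B1 are at 2341 or more in plasma cells, while SRP14 lies lower in plasma cells than in B or T cells. Levels are 3′ end counts and are not per length, so they compare cells and not genes.

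Against B cells, 36 of the 44 genes were higher in plasma cells in every one of the 4 libraries that allowed the comparison (libraries 2, 8, 11 and 12), and 2 were lower in every one. Libraries 2 and 12 held only 65 and 41 B cells, with 277401 and 160391 UMIs, against 692 and 566 B cells in libraries 8 and 11. Low B cell levels in libraries 2 and 12 therefore rest on few molecules. Among the 7383 genes measured in these classes, 4.28% were higher and 64.4% lower in plasma cells by the same rule. Measured means a mean of at least 5 CPM over the pooled classes. The median log2 ratio of the 44 genes was 1.30 (1 unit is a 2-fold difference, and 10 CPM was added to both levels), beside −0.91 for all genes measured. Outside antibody genes, 43 of the 44 were higher in every library and none was lower, with a background of 17.8% higher and 26.7% lower among 8225 genes. The median of the 44 was then 2.60, and that of all genes −0.15. By library the median of the 44 genes on this scale ran from 2.45 to 2.80. Over all UMIs library 12 gave the highest plasma over B ratio of SSR3, SSR1, SEC11C and PRDX4, among others.

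Against T cells, 32 of the 44 genes were higher in plasma cells in all 7 usable libraries (2, 5, 8, 10, 11, 12 and 13) and 1 was lower in all of them. The background among 7279 genes was 4.53% higher and 69.8% lower. The median log2 ratio was 1.23 for the 44 genes and −0.85 for all genes. Outside antibody genes, 42 were higher and 1 lower in every library, where 15.4% and 22.5% of 8127 genes were. The medians were 2.56 for the 44 genes and −0.09 for all genes. Both comparisons use the same plasma cells in 4 libraries, so their counts are not separate evidence. In both at once, 31 of the 44 genes were higher in plasma cells over all UMIs, against 3.08% of the 6762 genes measured in both, and 42 outside antibody genes, against 11.2% of 7747.

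**Figure D2:**
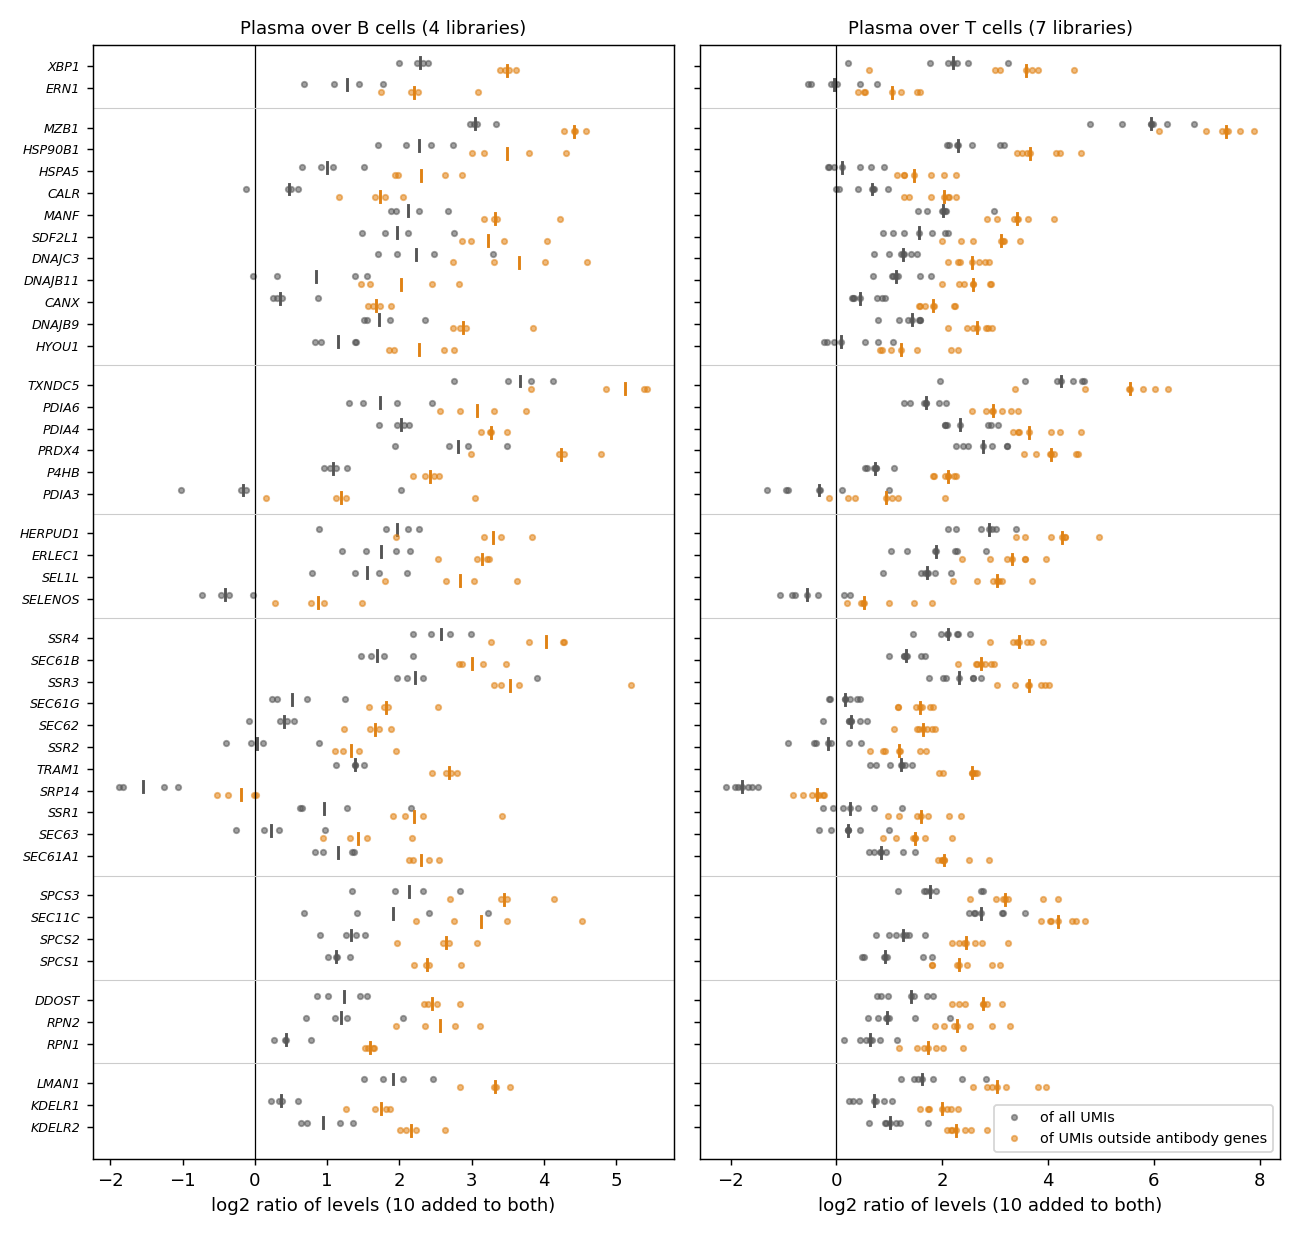
Log2 ratio of the level in plasma cells to that in B cells (left, 4 libraries) and in T cells (right, 7 libraries), with 10 CPM added to both levels; each point is a library and each bar the median over libraries. Grey uses all UMIs and orange the UMIs outside antibody genes; the orange medians lie above 0 for every gene but SRP14, and the largest, 7.36, is MZB1 against T cells.

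XBP1 and its upstream sensor ERN1 were low in B cells and higher in plasma cells. In plasma cells XBP1 stood at 42.9 CPM in library 2, 2.18 in library 5, 103 in library 8, 119 in library 10, 82.3 in library 11, 127 in library 12 and 81.1 in library 13. In B cells it stood at 0 CPM in library 2, 0.159 in library 3, 12.6 in library 8, 11.5 in library 9, 13.1 in library 11 and 18.7 in library 12, so the classes did not overlap within any shared library. T cells ranged from 0.412 CPM in library 5 to 16.9 in library 13. Library 5 was the low end for plasma cells and for T cells alike, and its plasma value lay inside the range of the B cell libraries. Its plasma and T cell values both lay at the floor of counting. The log2 ratio of plasma over B cells had a median of 2.29 (2.0 to 2.40) and that of plasma over T cells 2.20 (0.23 to 3.24). ERN1 had a plasma over B median of 1.27 (0.68 to 1.78). Against T cells its median was −0.06 over all UMIs and 1.06 outside antibody genes, so the direction turned with the scale. The counts do not separate spliced from unspliced XBP1 mRNA.

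Among the 11 chaperones and their helpers, 9 were higher in plasma than in B cells in every library and 8 higher than in T cells, with none lower in every library of either comparison. MZB1, a helper of antibody assembly found in B lineage cells, had the highest level and the largest plasma over B ratio of this role. Its plasma level was 10886 CPM in library 2, 5703 in library 5, 1397 in library 8, 2451 in library 10, 1587 in library 11, 3024 in library 12 and 2301 in library 13. In B cells it was 1067 CPM in library 2, 240.2 in library 3, 157 in library 8, 132 in library 9, 186 in library 11 and 374 in library 12. T cells ranged from 8.12 to 91.2 CPM with a median of 27.8. The 2 libraries of the first set held the highest plasma values, and library 2 was also the highest in B and T cells. The plasma over B log2 ratio was nonetheless narrow, at 3.05 (2.98 to 3.34), and the plasma over T ratio was 5.95 (4.79 to 6.75).

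HSP90B1, the reticulum's HSP90 chaperone, had a plasma over B median of 2.27 (1.70 to 2.74) and a plasma over T median of 2.29 (2.08 to 3.17). HSPA5, the HSP70 chaperone BiP that binds unassembled heavy chains, differed less, with medians of 0.99 (0.65 to 1.51) and 0.10 (−0.16 to 0.89). Its pooled level was 1041 CPM in plasma cells (exact Poisson 95% interval 1024 to 1059), 551 in B cells and 690.1 in T cells. Outside antibody genes its medians were 2.31 and 1.47, higher in every library of both comparisons. HYOU1, which recharges BiP, showed the same pattern against T cells, with 0.08 over all UMIs and 1.22 outside antibody genes. MANF and SDF2L1, small partners of BiP, had plasma over B medians of 2.12 and 1.96, and the BiP partners DNAJC3 and DNAJB9 had 2.23 and 1.72. The lectin chaperones differed less: CANX was at 0.34 (0.25 to 0.87), and CALR at 0.48 (−0.12 to 0.59) was lower in library 12. CRELD2, kept apart from the 44, was at 202 CPM in plasma cells, 8.25 in B cells and 29.2 in T cells, with a plasma over B ratio of 3.28 (2.68 to 3.68).

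Of the 6 disulfide and peroxide enzymes, 5 were higher in plasma cells than in B cells and than in T cells in every library. TXNDC5, a disulfide isomerase with 3 thioredoxin domains, had the largest plasma over B ratio of the 44 genes. Its plasma level was 448 CPM in library 2, 192 in library 5, 897 in library 8, 1065 in library 10, 1405 in library 11, 1146 in library 12 and 1075 in library 13. B cells ranged from 56.1 to 90.0 CPM over 6 libraries and T cells from 19.2 to 46.8 CPM over 11. Plasma cells were thus above both classes in every library, with the first set at the low end of the plasma values. The log2 ratios were 3.66 (2.76 to 4.13) over B cells and 4.24 (1.95 to 4.68) over T cells. PRDX4, a peroxidase that passes oxidising power to the isomerases, followed with 2.82 (1.94 to 3.49) and 2.78 (2.26 to 3.22). PDIA4, PDIA6 and P4HB, further isomerases, had plasma over B medians of 2.02, 1.73 and 1.08.

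PDIA3, the isomerase that works with CANX and CALR, was the exception of this role. Its plasma level was 75.0 CPM in library 2, 10.9 in library 5, 75.0 in library 8, 60.3 in library 10, 69.6 in library 11, 59.7 in library 12 and 48.8 in library 13. In B cells it was 10.8 CPM in library 2, 7.17 in library 3, 82.9 in library 8, 114 in library 9, 80.4 in library 11 and 131 in library 12. In T cells of the first set it ranged from 7.40 to 39.5 CPM, and in those of the second set from 88.4 to 166 CPM, with no overlap between the sets. Library 2 was the only library of the first set in the comparison with B cells, and its plasma over B log2 ratio was 2.03. The B cell level there rests on very few molecules, as its 65 B cells held 277401 UMIs. In the 3 libraries of the second set the ratio was between −1.02 and −0.13. Outside antibody genes it was above 0 in all 4 libraries, from 0.16 to 3.04. A second gene ID carries the name PDIA3 in the table of gene names, and how reads were divided between the 2 was not tested.

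Targeting and translocation was the role with the widest spread of direction: 7 of its 11 genes were higher in plasma than in B cells in every library, 1 was lower and 3 were mixed. Against T cells, 5 were higher in every library, 1 lower and 5 mixed. SSR4, the delta subunit of the translocon-associated protein complex, had the highest level and the largest ratio over B cells, while over T cells SSR3 had the larger median, 2.31. Its plasma level was 2488 CPM in library 2, 1659 in library 5, 1908 in library 8, 3459 in library 10, 2139 in library 11, 3476 in library 12 and 3317 in library 13. B cells ranged from 255 to 537 CPM. In T cells 10 libraries lay between 479 and 799 CPM, and library 6, with 34 T cells, was at 0. Plasma cells were above both classes in every library, and the log2 ratios were 2.57 (2.19 to 2.99) over B cells and 2.10 (1.45 to 2.52) over T cells.

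The subunits of the same complex did not share a size. SSR3 had a plasma over B median of 2.22 (1.96 to 3.90), SSR1 of 0.96 (0.62 to 2.17) and SSR2 of 0.03 (−0.40 to 0.89). The channel subunits behaved likewise, with medians of 1.69 for SEC61B, 1.15 for SEC61A1 and 0.51 for SEC61G. SEC62 and SEC63, which help import after translation, were near B cell levels at 0.40 (−0.09 to 0.55) and 0.23 (−0.26 to 0.97). TRAM1, a translocating chain protein beside the channel, was at 1.39 (1.12 to 1.52). Outside antibody genes all 10 of these genes were higher in plasma than in B cells in each of the 4 libraries.

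SRP14, a subunit of the signal recognition particle that pauses translation, was the only one of the 44 genes lower in plasma cells in every library of both comparisons over all UMIs. Its plasma level was 298 CPM in library 2, 403 in library 5, 171 in library 8, 199.8 in library 10, 175 in library 11, 227 in library 12 and 189 in library 13. B cells ranged from 555 to 1127 CPM and T cells from 615 to 1305 CPM. The plasma values thus lay wholly below those of both classes. The log2 ratios were −1.54 (−1.87 to −1.06) over B cells and −1.79 (−2.09 to −1.49) over T cells. Outside antibody genes the difference from B cells shrank to −0.18, with 1 of 4 libraries above 0, and that from T cells to −0.37 (−0.82 to −0.23), still below 0 in all 7 libraries. SRP9, the partner of SRP14 in the same domain of the particle, had a plasma over B median of −1.46 over all UMIs and −0.42 outside antibody genes.

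All 4 signal peptidase genes were higher in plasma cells in every library of both comparisons, with plasma over B medians from 1.12 to 2.13 and plasma over T medians from 0.92 to 2.73. SPCS3, an accessory subunit, had a plasma level of 1727 CPM in library 2, 1229.5 in library 5, 582 in library 8, 1400.3 in library 10, 761 in library 11, 1175 in library 12 and 1184 in library 13. B cells ranged from 156 to 335 CPM and T cells from 157 to 374 CPM, below every plasma library. Its log2 ratios were 2.13 (1.35 to 2.84) and 1.77 (1.16 to 2.77). SEC11C, a catalytic subunit, differed more from T cells, at 2.73 (2.50 to 3.57), than its 1.91 (0.68 to 3.23) from B cells, whose pooled level of 271 CPM stood above the 110.5 CPM of T cells.

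The 3 glycan transfer genes, all subunits of the oligosaccharyltransferase, were higher in plasma cells in every library of both comparisons. DDOST stood in plasma cells at 887 CPM in library 2, 756 in library 5, 248 in library 8, 539 in library 10, 247 in library 11, 439.9 in library 12 and 618 in library 13. In B cells it ranged from 118 to 317 CPM and in T cells from 135 to 381 CPM, so that libraries 8 and 11 overlapped with other libraries' B and T cells and differed only within the library. The log2 ratios were 1.24 (0.87 to 1.55) and 1.41 (0.76 to 1.83). RPN2 had a plasma over B median of 1.19 and RPN1 of 0.43 (0.27 to 0.78).

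Of the 4 degradation genes, 3 were higher in plasma cells in every library of both comparisons. HERPUD1, a membrane scaffold of the degradation complex that stress induces, stood at 705 CPM in library 2, 538 in library 5, 1605 in library 8, 1961 in library 10, 1629 in library 11, 1277 in library 12 and 1730.0 in library 13. In B cells it stood between 287 and 764 CPM and in T cells between 117 and 344 CPM. Plasma cells were above T cells in every library, while libraries 2 and 5 lay inside the range of the B cell libraries. The log2 ratio was 1.97 (0.89 to 2.27) over B cells and 2.88 (2.11 to 3.38) over T cells. SEL1L, the adaptor of the HRD1 ligase, and the lectin ERLEC1 had plasma over B medians of 1.55 and 1.74.

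SELENOS, a selenoprotein of the same complex, was lower in plasma than in B cells in all 4 libraries over all UMIs. It stood at 107 CPM in library 2, 93.7 in library 5, 181 in library 8, 138 in library 10, 172 in library 11, 182 in library 12 and 117 in library 13 in plasma cells, against 176 to 256 CPM in B cells and 126 to 255 CPM in T cells. The log2 ratio over B cells was −0.42 (−0.73 to −0.03) over all UMIs and 0.87 (0.28 to 1.48) outside antibody genes. Its direction was therefore set by the scale.

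The 3 sorting genes were higher in plasma cells in every library of both comparisons. LMAN1, the cargo receptor ERGIC-53 that carries glycoproteins to the Golgi, stood in plasma cells at 681 CPM in library 2, 584 in library 5, 246 in library 8, 628 in library 10, 339.6 in library 11, 523 in library 12 and 550.3 in library 13. B cells ranged from 40.0 to 118 CPM and T cells from 47.7 to 209 CPM, below every plasma library. The log2 ratios were 1.91 (1.51 to 2.46) and 1.62 (1.23 to 2.83). KDELR1 and KDELR2, receptors that return escaped chaperones, had plasma over B medians of 0.36 and 0.95.

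Within plasma cells the libraries differed most in XBP1, SDF2L1 and HSPA5, whose highest library lay 4.41, 4.01 and 3.19 above the lowest on the log2 scale with 10 CPM added. Without that addition the ratios were 55.0-fold for XBP1, 18.9-fold for SDF2L1, 14.2-fold for ERN1 and 9.28-fold for HSPA5, so that ERN1, at 6.03 to 85.8 CPM, came before HSPA5. Library 5 held 458717 plasma cell UMIs, where 2.18 CPM of XBP1 and of ERN1 over all UMIs lay at the floor of counting. The fold ratios of XBP1 and ERN1, and the place of ERN1, therefore rest on very few molecules. Outside antibody genes, XBP1 ranged from 6.03 CPM in library 5 to 331 in library 12, SDF2L1 from 54.3 in library 5 to 1028 in library 12, and HSPA5 from 531 in library 5 to 4926 in library 8. Library 5, with 33 plasma cells, was the lowest library for HSPA5, MANF, SDF2L1, XBP1, TXNDC5 and HERPUD1, while HSP90B1 was highest there at 9451. RPN2 went the other way between the sets, with 1228 and 1519.8 in libraries 2 and 5 and 179 to 439 in the second set. The narrowest were PDIA6, SPCS2 and HSP90B1, at 0.72, 0.79 and 0.81 with 10 CPM added. Over the 41 genes of the list with at least 100 CPM on this scale the median of that range was 1.35, close to the 1.45 of all 1271 genes at that level. The list as a whole was thus about as spread between libraries as other genes of that level. In T cells library 5 was also the lowest for HSPA5 at 214 CPM, MANF at 21.0, XBP1 at 0.412 and HERPUD1 at 117. It was not the lowest there for SDF2L1, at 6.19 CPM with libraries 6 and 3 below it, or for TXNDC5, whose 42.1 CPM lay above the median of 39.3.

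**Figure D3:**
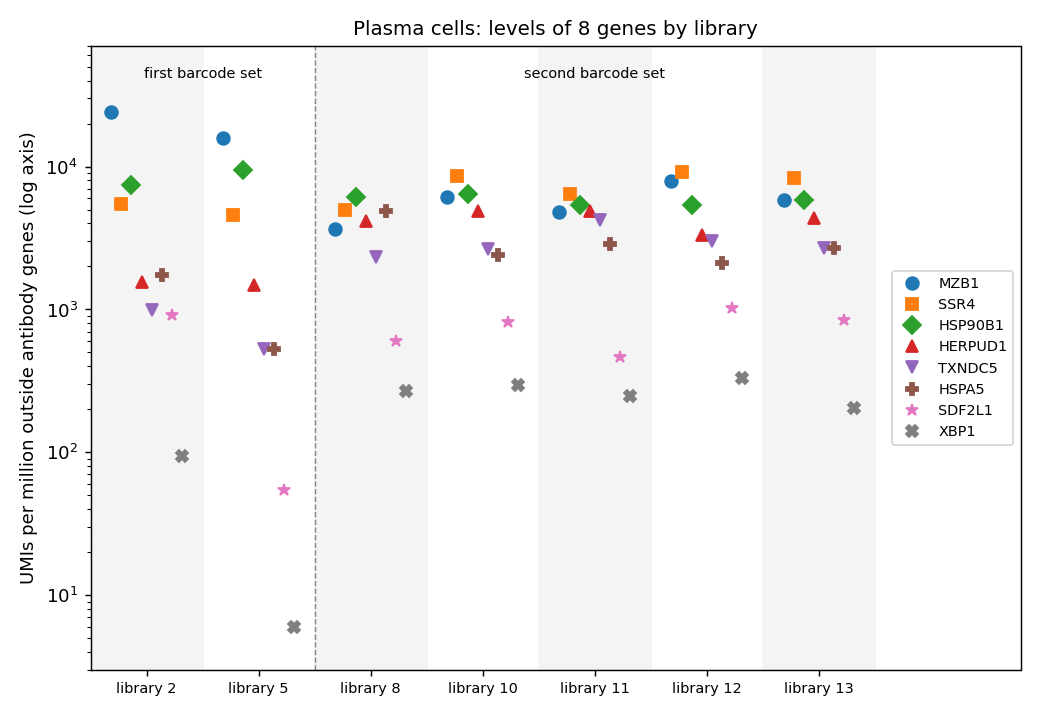
Levels of 8 of the genes in plasma cells (CPM outside antibody genes, log axis) in the 7 libraries with at least 20 plasma cells, spread sideways within a library for legibility. Library 5 holds the lowest values of XBP1 (6.03), SDF2L1 (54.3) and HSPA5 (531), and MZB1 is highest in library 2 (24088); the dashed line parts the barcode sets.

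The level was also compared across plasma cells that differed in their share of antibody gene UMIs. The plasma cells of each library were ranked by the share of their UMIs from the antibody genes other than JCHAIN and divided into 5 groups of near equal size. From the lowest of these to the highest the median share went from 39.8% to 66.3% in library 10, the largest library, and from 35.1% to 64.8% in library 8. The summed level of the 44 genes outside antibody genes went from 61757 to 73341 in library 10, from 45775 to 54279 in library 8, from 56780.3 to 62819 in library 11, from 59513 to 69233 in library 12 and from 59861 to 70525 in library 13. In library 2 it went from 61271 to 103688 and in library 5 from 65335 to 61504, each with 6 to 9 cells in a group. The sum was higher in the top group in 6 of the 7 libraries.

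By gene, 9 of the 44 were higher in the top than in the bottom group in all 7 libraries: TXNDC5, XBP1, DNAJC3, SSR4, SPCS2, SEC11C, TRAM1, DDOST and PRDX4. The background among 7819 genes was 0.972%. It takes all genes of at least 5 CPM outside antibody genes, while the 44 stood at 61.4 or more. Genes near 5 CPM often have no UMI in groups of 6 to 9 cells and then cannot be called. The background is therefore not a like one for the 44. The median log2 differences were 0.87 for XBP1, 0.84 for TXNDC5, 0.73 for SSR4 and 0.46 for PRDX4. HSPA5 did not share the pattern, at −0.03 (−1.19 to 0.37), nor did PDIA4 at −0.14 and SEC61A1 at −0.27. Over the 44 genes the median was 0.14. It was 0.00 over all genes of at least 5 CPM, where a gene without a UMI in both groups gives 0. Cells of the top group also held more UMIs in all in each library (a median of 7636.5 against 4733 in library 10). Outside antibody genes they held fewer in 6 libraries (2504.5 against 2973 in library 10) and slightly more in library 11 (4039 against 3990.5), and the part of depth in these differences was not tested.

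**Figure D4:**
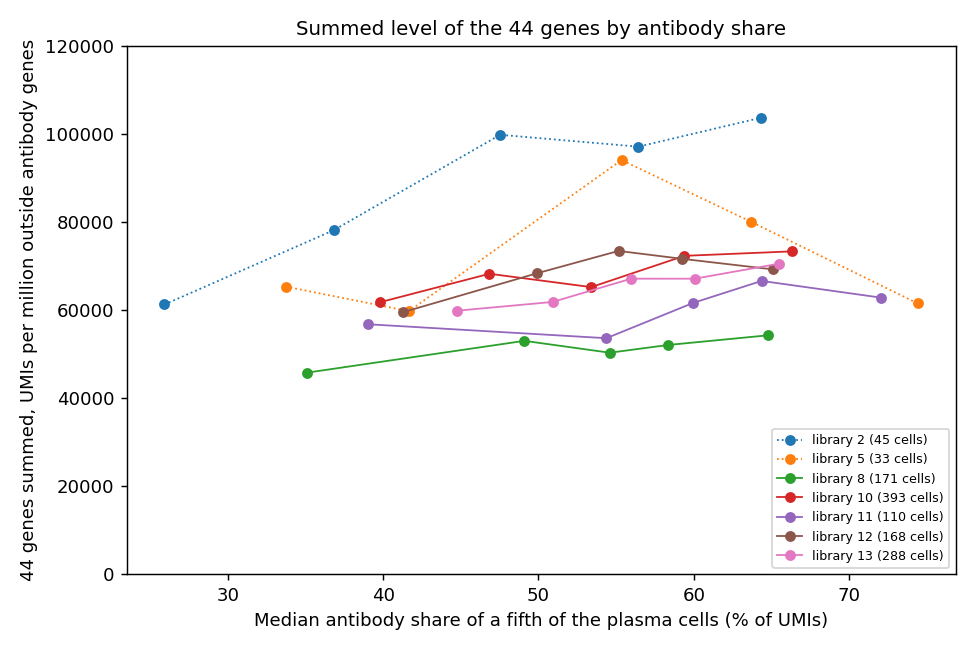
Summed level of the 44 genes (CPM outside antibody genes) in 5 groups of the plasma cells of each library, against the median antibody share of the group (% of UMIs). The top group lies above the bottom group in 6 of 7 libraries, library 5 being the exception; dotted lines are libraries with under 100 plasma cells.

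Detection was also counted cell by cell, with each cell thinned to 1500 UMIs in all. Thinning matched the total and not the UMIs outside antibody genes, of which a median of 588 were left in plasma cells, 1486 in B cells and 1499 in T cells. Of the 44 genes, 16 had a UMI in over 50% of thinned plasma cells. A larger share of plasma cells than of B cells and of T cells held a UMI for 40 genes, and the other 4 were SRP14, SELENOS, SSR2 and PDIA3. The same counts were not made over all genes, so 16 and 40 describe the list and do not set it apart. Among the genes found most often in plasma cells, MZB1 had a UMI in 92.2% of plasma cells (exact binomial 95% interval 90.5 to 93.6), 22.2% of B cells and 4.36% of T cells. Without thinning the shares were 99.6%, 42.5% and 9.20%. HSP90B1 was found in 92.3%, 27.5% and 37.0% of the thinned cells (99.8%, 48.7% and 58.7% unthinned) and SSR4 in 96.1%, 36.9% and 55.7% (99.7%, 65.0% and 80.6% unthinned). XBP1 was found in 12.4% of thinned plasma cells, 0.926% of B cells and 1.24% of T cells, and in 52.3%, 2.73% and 2.79% unthinned. SRP14 ran the other way, with 26.1%, 67.5% and 68.4% thinned and 81.3%, 89.2% and 89.7% unthinned. JCHAIN, which T cells should lack, stood at 12.2 to 407 CPM in T cells by library. T cells held 10.0 to 40.4 UMIs of MZB1 for every 100 of JCHAIN, and plasma cells of the same 7 libraries 2.13 to 19.5, with the T cell ratio above the plasma ratio in each library. The gates select on JCHAIN, as plasma cells needed at least 1% of UMIs and T cells with that much were left out. The order of these ratios is thus partly set by the gates and is no finding. What part of the MZB1 found in T cells is free RNA was not tested.

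B cells and T cells differed little in this machinery. Of the 44 genes, 8 were higher in B cells in all 6 usable libraries and 6 were lower, while 15.3% of 8142 genes were higher and 13.4% lower. The counts are near those shares and say nothing particular of the list. The median log2 ratio was −0.07 for the 44 genes and 0.11 for all genes, and it was 0.093 for the 44 in the first barcode set alone. The 8 were MZB1 at 3.12 (2.37 to 3.41), HERPUD1 at 1.12, PDIA4 at 1.09, TXNDC5 at 0.73, DNAJB11 at 0.73, SELENOS at 0.40, CALR at 0.34 and RPN1 at 0.18. The 6 lower in B cells were DNAJC3 at −1.11, SSR1 at −0.58, SSR2 at −0.53, HSPA5 at −0.49, P4HB at −0.19 and SEC62 at −0.16.

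A wider list of 64 further genes of the pathway, 63 of which were found and 61 measured, had smaller ratios than the 44. Over all UMIs 28 were higher in plasma than in B cells in every library and 11 lower, with a median of 0.38. Of all genes measured, 4.28% were higher and 64.4% lower. Outside antibody genes 49 were higher and none lower, with a median of 1.48, where 17.8% and 26.7% of all genes were. The share of all genes called thus also changed with the scale. The largest plasma over B medians were 2.74 for DERL3, 2.27 for HM13, a signal peptide peptidase, 2.18 for CREB3L2, a transcription factor of secretory cells, 2.16 for the prolyl isomerase FKBP2 and 1.71 for SRPRB, a subunit of the receptor of the signal recognition particle. The smallest were −1.58 for the oxidase ERO1B, −1.46 for SRP9, −1.41 for the sensor ATF6, −1.24 for DDIT3, a factor of the terminal stress response, and −1.12 for ATF6B. Outside antibody genes DDIT3 was at 0.10 and the other 4 were between −0.42 and −0.25, with mixed direction over libraries. The sensor ATF6 thus stood apart from XBP1, which was higher in plasma cells in every library on both scales. Against T cells 27 of the wider list were higher and 10 lower in every library over all UMIs, where 4.53% and 69.8% of all genes were. Outside antibody genes 50 were higher than in T cells and none lower, where 15.4% and 22.5% of all genes were.

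Dividing cells were set beside other cells of their class, outside antibody genes. A dividing cell had at least 2 UMIs of the cycle genes MKI67 and TOP2A together, and the others had none. Only 10 plasma cells were dividing, and no library held enough of them. In B cells (562 dividing, 2957 others, 4 libraries) 14 of the 44 genes were higher in dividing cells in every library and 5 were lower, where 33.0% and 16.8% of 8007 genes were. In T cells (264 dividing, 10605 others, 3 libraries) the counts were 17 and 7, where 28.6% and 17.3% of 7946 genes were. The B cell counts are near those shares and say nothing particular of the list. Both classes shared 9 of the genes called higher: SDF2L1, PDIA6, P4HB, TXNDC5, PDIA4, DNAJB11, SEC61G, SSR3 and SELENOS. The first 4 of these had medians of 0.77, 0.79, 0.45 and 0.58 in B cells and 1.03, 0.69, 0.95 and 0.34 in T cells. The 3 called lower in both were SSR4, SEC62 and SSR2, with medians of −0.61, −0.55 and −0.41 in B cells and −0.32, −0.52 and −0.10 in T cells. The share of all genes called alike in both classes was not computed, so this overlap says nothing particular of the list. Dividing cells were deeper, with a median of 6313 UMIs against 3072 in B cells and 7013 against 3072 in T cells, and the part of depth was not tested.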

How the data were processed

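The raw counts deposited by the authors (UMIs per gene and barcode) come from Cell Ranger 3.1.0, per the submitters' processing notes, which also name Seurat 3.1; the genome build is not stated in them. The deposited lists of barcodes and genes and the names of the 20606 kept cells, with no measured value, were used to select cells, and a normalised matrix was not used. Raw UMIs were summed per library and class, divided by all UMIs (CPM) or by those outside 28 antibody genes, and compared as log2 ratios with 10 CPM added (Python 3.11.15, numpy 2.4.6, pandas 2.3.3, scipy 1.17.1). Libraries needed 20 cells of both classes. No doublet caller was run, and cells that passed several gates were left out. The ratio code was checked on simulated data.

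Of the gene IDs, 24126 matched the table of gene names. Values by library were given, within each of 8 roles, for the gene with the highest pooled plasma CPM and that with the largest plasma over B ratio and for those at or below 0. Of the wider list, the 5 largest and 5 smallest plasma over B medians were named. Other genes were named after their values were seen. The genes, lists and roles were chosen with earlier results of these data known. Intervals cover counting error only. No test between groups was run, since the libraries could not be tied to labels. Alternatives were other pseudocounts, level filters, gates, cell filters, scales, thinning and the omission of each library or barcode set.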

Additional observations from a re-analysis of the deposited data

How the results depend on the processing

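The median plasma over B ratio of the 44 genes was 1.50 with 1 CPM added, 1.09 with 50 CPM, 2.60 outside antibody genes, 2.18 when centred on all genes, 1.17 with all barcodes of at least 500 UMIs, 1.51 in cells thinned to 1500 UMIs and 2.46 when the plasma gate took precedence and antibody genes were left out. The last alternative was chosen after seeing the data. The median over T cells was 0.92 with 50 CPM, 2.56 outside antibody genes, 2.05 centred and 2.40 with precedence and antibody genes left out. The median of B over T was −0.19 centred and 0.093 in the first barcode set alone. When every cell that passed a gate was used, also in several classes, the plasma and B classes shared 1254 cells. The medians then were 0.12, 0.67 and 0.19, 5 genes were higher in plasma than in B cells in every one of 9 libraries (0.329% of all genes were), and the sums were 15479 CPM in B cells and 12126 in T cells. The plasma sum was 64891 outside antibody genes and 62242 with precedence as well. Genes of the 44 higher in B than in T cells in every library numbered 3 with all barcodes (7 libraries, 8.92% of all genes) and 16 of 42 measured in the first set alone (2 libraries, 30.1% of all genes). SELENOS turned above 0 over B cells at 0.87 outside antibody genes, 0.48 centred and 0.72 with precedence as well. The cause was not tested. Of all measured genes, 316 were higher in plasma than in B cells in every library over all UMIs and 1465 outside antibody genes; over T cells these were 330 and 1251.

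Leaving out each library gave 36 to 38, 32 to 33 and 8 to 10 genes, medians of 1.30 to 1.40, 1.15 to 1.23 and −0.10 to −0.07, and sums of 24456 to 25879 CPM in plasma, 7164 to 7464 in B and 7775 to 8008 in T cells. Only 4 libraries compare plasma with B cells. The log2 ratios between classes were computed within libraries. Pooled levels and detection shares were not, and their classes draw unevenly on the libraries. No paired analysis was possible because, for the study's groups, the barcode numbers carry no label of group or replicate.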

Other observations

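Cells that passed the plasma gate and another gate, left out above, held a like sum of the 44 genes, while single genes differed. The 44 genes summed to 64764 CPM outside antibody genes in the 679 cells passing the plasma and B gates, 56504 in the 464 passing the plasma and T gates and 60114 in the 575 passing all 3, beside 64891 in cells passing the plasma gate only. MS4A1 stood at 4.85 CPM in the cells passing the plasma and B gates, against 1345 CPM in B cells, while CD79A stood at 264 CPM against 792 CPM. CD3E stood at 47.2 CPM in the cells passing the plasma and T gates, against 566 CPM in T cells. Their median UMIs were 14262 and 12530.5, above the 9506 of cells passing the plasma gate only. TXNDC5 outside antibody genes was at 2721, 1918 and 1522 in the 3 kinds of cell, beside 2664, and MZB1 at 8489, 7409.9 and 10687, beside 7071.

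Few cells lay just under the plasma gate. JCHAIN made up 0.5% to under 1% of UMIs in 12 cells that passed neither other gate, and 1% to under 2% in 55. Outside antibody genes the 44 genes summed to 30315 CPM in those 12 cells and 47483 in those 55, beside 60912 at 2% to under 4% of UMIs (307 cells) and 67046 at 4% or more (879 cells). Median UMIs were 3614, 6472, 9033 and 10033 in the same order. JCHAIN chose these cells, so the values are a description of the edge of the gate.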
